A study of Mus musculus with 6 samples.

Results

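The genes described here encode the enzymes that write, copy and erase DNA methylation: Dnmt1, Dnmt3a, Dnmt3b, Dnmt3l, Uhrf1, Tet1, Tet2 and Tet3. They were taken by name from the array's annotation, through features that list only that gene, and all 8 were found among the 30702 genes measured. Each had 1 such feature and none was listed on a feature shared with another gene. RNA came from mouse embryonic stem cells of the line labelled iRunx, differentiated as embryoid bodies (cell aggregates in which the germ layers form) and dissociated at day 4. Cells positive for Flk1, a receptor on the precursors of endothelium and blood, and negative for PDGFRα, a marker of other mesoderm, were sorted by flow cytometry. The HOXB4 group (3 arrays) expressed the homeodomain protein HOXB4 with tdTomato from a retrovirus, and the control group (3 arrays) did not. Both groups were of the iRunx line, which is the only line in the series; whether controls carried an empty vector, and what was done to the iRunx transgene, are points on which the labels are silent. The series text calls the replicates independent experiments.

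DNA methylation in mammals sits mostly on the cytosine of CpG. DNMT3A and DNMT3B place it on unmethylated DNA, with DNMT3L as a partner that has no catalytic activity of its own, and DNMT1 copies it after replication, brought to the new strand by UHRF1. TET1, TET2 and TET3 oxidise methylcytosine, from where it can be lost by dilution or by base excision repair. Dnmt3b and Dnmt3l are known for high levels in the early epiblast, and Tet2 is a frequent target of mutation in human blood cancers.

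The promoters of these genes hold CpG themselves. RefSeq windows of 300 bases, 250 before to 50 after a start site, were given for all 8 genes on build GRCm38.p6, 15 windows in all. Among 32851 windows of the same length the median held 7 CpG. The Tet2 window at chr3:133544341-133544640 (minus strand) held 57, a number that 0.152% of all windows reached. The Dnmt3b window at chr2:153649199-153649498 (plus strand) held 30 and the Tet3 window at chr6:83441629-83441928 (minus strand) held 22, numbers that 11.7% and 23.1% of windows reached. These 3 are shown because Tet2, Tet3 and Dnmt3b were the members whose values spread most between the arrays and because each has a single window. Every CpG is in capitals.
Tet2: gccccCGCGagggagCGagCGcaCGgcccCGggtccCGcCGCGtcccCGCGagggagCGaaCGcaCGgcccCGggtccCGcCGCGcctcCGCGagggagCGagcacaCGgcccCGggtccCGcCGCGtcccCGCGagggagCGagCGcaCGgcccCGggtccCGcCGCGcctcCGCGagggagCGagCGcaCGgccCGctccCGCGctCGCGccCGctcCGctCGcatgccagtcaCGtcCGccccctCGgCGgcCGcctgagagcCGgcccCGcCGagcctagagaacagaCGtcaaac
Tet3: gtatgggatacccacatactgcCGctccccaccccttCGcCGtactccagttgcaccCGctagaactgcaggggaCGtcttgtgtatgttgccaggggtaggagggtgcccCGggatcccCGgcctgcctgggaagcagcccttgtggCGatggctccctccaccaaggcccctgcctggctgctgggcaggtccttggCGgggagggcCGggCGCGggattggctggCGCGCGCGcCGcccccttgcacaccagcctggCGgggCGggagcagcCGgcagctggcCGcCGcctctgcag
Dnmt3b: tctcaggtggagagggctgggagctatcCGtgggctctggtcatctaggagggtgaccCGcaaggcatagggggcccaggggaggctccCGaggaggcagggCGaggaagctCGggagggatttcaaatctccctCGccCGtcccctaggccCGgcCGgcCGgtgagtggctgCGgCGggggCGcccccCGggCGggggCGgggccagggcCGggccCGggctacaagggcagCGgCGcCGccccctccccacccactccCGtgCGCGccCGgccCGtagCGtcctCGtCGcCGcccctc
In the Tet2 window the 10 bases CCGCGAGGGA stood 5 times, each 42 bases after the last, and of the 32851 windows only this 1 held them more than once on the strand shown. The windows of Dnmt3l held 6, 4 and 3 CpG, and those of Dnmt1 held 33, 12 and 2, the lowest of the 15. The E2F letters TTTCCCGC or TTTGGCGC, on either strand, stood in 1 window of Dnmt1 and in none of the other 14, and in 1.56% of all windows. The HOX-PBX letters TGATTNAT (3.22% of all windows) and the ETS letters CGGAAG (16.9%) stood in none of the 15, on either strand.

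No member passed the test between HOXB4 and control cells. The test was limma's moderated linear model across all genes, with Benjamini-Hochberg adjustment over all of them, and it called 0 of 30702 genes (0% called) at an adjusted p of 0.05. At an unadjusted p of 0.05 it counted 8.19% of genes and 0 of the 8 members, and an unmoderated linear model likewise called 0, with 1974 genes under the unadjusted level. The 3 HOXB4 values lay apart from the 3 control values for 0 of the 8 members, against 13.5% of all genes. Values are log2 summaries on which 1 unit is a doubling; they compare arrays for the same gene and not genes with each other. The largest differences were those of Tet2 and Tet3, and they were smaller than the spread among the HOXB4 arrays. In these bulk samples fewer cells of a type and less RNA per cell cannot be told apart.

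**Figure D1:**
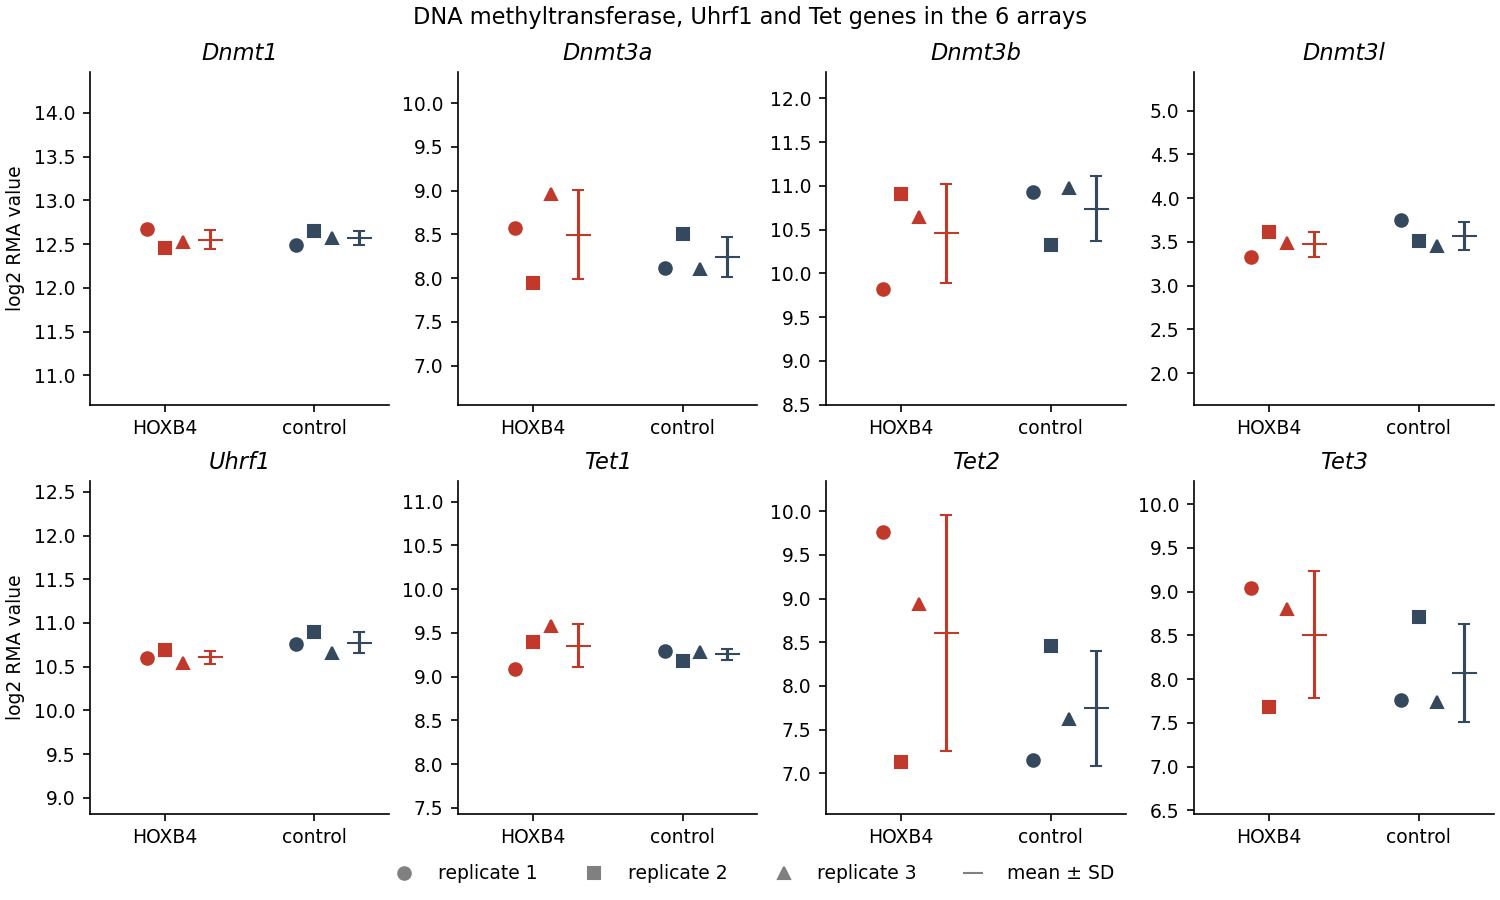
Log2 value of each of the 8 genes (y axis, every panel spans the same range of log2 units) in HOXB4 (left, red) and control (right, dark) arrays, with the replicate number as the symbol and the mean ± SD of 3 arrays beside the points. Tet2 ran between 7.13 and 9.76 and Dnmt1 between 12.5 and 12.7, and in every panel the groups overlap.

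Tet2 had the widest spread of the family. It stood at 9.76, 7.13 and 8.94 in HOXB4 1 to 3, against 7.16, 8.45 and 7.63 in control 1 to 3. HOXB4 1 and HOXB4 3 lay above every control, while HOXB4 2 lay below every control. The means were 8.61 ± 1.35 in HOXB4 cells and 7.75 ± 0.66 in controls (SD, n = 3 each), a log2 difference of 0.86 (SE 0.67, 95% interval -0.73 to 2.45, adjusted p = 0.721 by limma). The exact two-sided permutation test over the 6 arrays gave p = 0.50, where the smallest p that 3 against 3 allows is 0.10. The range of Tet2 over the arrays, 2.63, was reached by 0.554% of all genes. Without HOXB4 2 the difference was 1.60 (SE 0.41, adjusted p = 0.196 by limma), and without HOXB4 1 it was 0.28.

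Tet3, the form that oxidises the paternal genome in the zygote, had the same 3 high arrays. It stood at 9.05, 7.68 and 8.80 in HOXB4 1 to 3, against 7.76, 8.71 and 7.73 in control 1 to 3. HOXB4 1, HOXB4 3 and control 2 were the high arrays, and HOXB4 2, control 1 and control 3 lay together below 8. Its difference was 0.44 (SE 0.41, 95% interval -0.55 to 1.42, adjusted p = 0.771 by limma), with an exact permutation p of 0.40. It was 0.85 without HOXB4 2 and 0.17 without HOXB4 1. Tet1, the form most studied in embryonic stem cells, varied less. It stood at 9.09, 9.40 and 9.58 in HOXB4 1 to 3, against 9.30, 9.18 and 9.29 in control 1 to 3, so that the HOXB4 arrays held both its lowest and its highest value. Its difference of 0.10 (SE 0.14, 95% interval -0.23 to 0.43, adjusted p = 0.833 by limma; exact permutation p = 0.50) turned to -0.013 without HOXB4 3.

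The de novo enzymes Dnmt3a and Dnmt3b ran in opposite directions across the arrays. Dnmt3a stood at 8.57, 7.95 and 8.96 in HOXB4 1 to 3, against 8.12, 8.51 and 8.11 in control 1 to 3. Its 3 high arrays were those of Tet2 and Tet3, namely HOXB4 1, HOXB4 3 and control 2. The difference was 0.25 (SE 0.26, 95% interval -0.37 to 0.87, adjusted p = 0.791 by limma; exact permutation p = 0.60), with 0.52 without HOXB4 2 and 0.02 without HOXB4 3. Dnmt3b stood at 9.82, 10.9 and 10.6 in HOXB4 1 to 3, against 10.9, 10.3 and 11.0 in control 1 to 3. The 3 arrays that were high for Dnmt3a were the 3 low ones for Dnmt3b, with HOXB4 1 the lowest. Its difference was -0.28 (SE 0.31, 95% interval -1.02 to 0.45, adjusted p = 0.798 by limma; exact permutation p = 0.50), and without HOXB4 1 it turned to 0.033. A feature named for the pseudogene Dnmt3b-ps1 stood at 6.88, 7.78 and 7.55 in HOXB4 1 to 3, against 7.94, 7.35 and 7.79 in control 1 to 3. Its 3 low arrays were those of Dnmt3b, and the files do not say whether the probes of the pair can bind the same RNA.

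Dnmt3l, the partner without catalysis, had no readable level. It stood at 3.32, 3.61 and 3.48 in HOXB4 1 to 3, against 3.75, 3.51 and 3.46 in control 1 to 3, and 9 of the 23 background features of the array had a higher mean than its 3.52. Its difference of -0.10 (SE 0.12) is therefore not read as expression. The other 7 members had means above all 23 background features.

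The maintenance pair Dnmt1 and Uhrf1 was the steadiest. Dnmt1 stood at 12.7, 12.5 and 12.5 in HOXB4 1 to 3, against 12.5, 12.7 and 12.6 in control 1 to 3. Its difference was -0.02 (SE 0.10, adjusted p = 0.959 by limma; exact permutation p = 0.80), with a sign that turned with arrays centred on their medians (0.0010), with cyclic loess (0.087) and without HOXB4 2 (0.026) or control 2 (0.020). The 95% interval, -0.25 to 0.21, reaches no farther than 0.25 log2 units on either side of 0. Uhrf1 stood at 10.60, 10.69 and 10.54 in HOXB4 1 to 3, against 10.76, 10.90 and 10.66 in control 1 to 3. HOXB4 2 lay just above control 3, and the other HOXB4 values lay below every control. The difference of -0.16 (SE 0.10, 95% interval -0.40 to 0.07, adjusted p = 0.663 by limma; exact permutation p = 0.20) had the smallest p of the 8 members, was -0.07 with cyclic loess and was -0.10 without control 2.

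**Figure D2:**
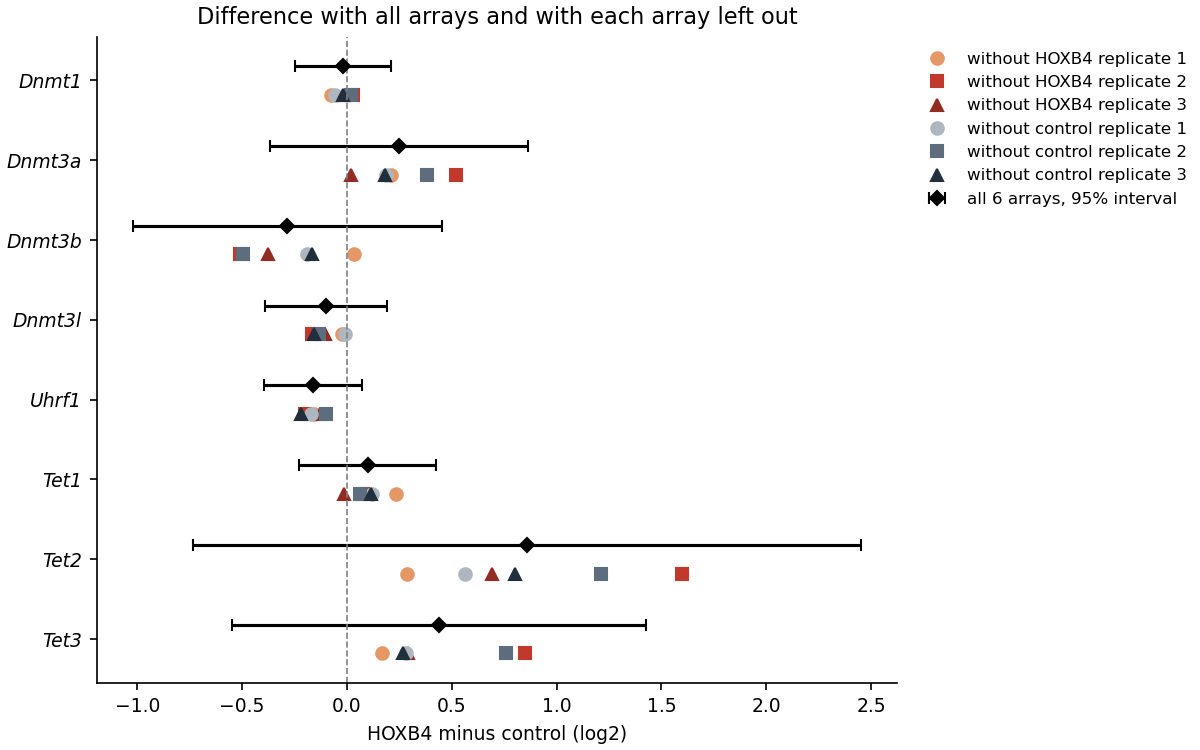
HOXB4 minus control (x axis, log2) for each gene (rows): the diamond and bar are the limma difference and its 95% interval from all 6 arrays, and the symbols under it are the differences with 1 array left out. All 8 intervals include 0, and Tet2 ran from 0.28 without HOXB4 replicate 1 to 1.60 without HOXB4 replicate 2.

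Endothelial markers were high in the same 3 arrays as Tet2, Tet3 and Dnmt3a. The mean of 10 of 10 endothelial markers was 10.7, 8.12 and 9.40 in HOXB4 1 to 3, against 8.43, 9.73 and 8.36 in control 1 to 3. HOXB4 1, control 2 and HOXB4 3 were again the high arrays, and their high position cuts across the groups. With Tet2 and the endothelial mean each set to its own mean over the arrays, Tet2 stood at 1.58, -1.05 and 0.76 in HOXB4 1 to 3 and at -1.02, 0.28 and -0.55 in control 1 to 3. The endothelial mean stood at 1.54, -0.997 and 0.28 in HOXB4 1 to 3 and at -0.69, 0.61 and -0.75 in control 1 to 3. The part of the endothelial level, or of the blood genes below, in the values of Tet2, Tet3, Dnmt3a and Dnmt3b was not tested. Kdr, which encodes the sorting marker Flk1, was high in every array, at 14.3, 13.7 and 13.8 in HOXB4 1 to 3 and at 13.7, 14.1 and 13.8 in control 1 to 3. No single-gene feature measured Pdgfra, so the negative side of the sort was not checked.

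The blood markers did not move as a unit. Tal1, a master transcription factor of blood, stood at 9.63, 8.25 and 9.82 in HOXB4 1 to 3, against 8.18, 9.10 and 8.29 in control 1 to 3. Myb, a transcription factor of blood progenitors, stood at 8.98, 7.29 and 8.96 in HOXB4 1 to 3, against 7.27, 8.16 and 7.35 in control 1 to 3. Both were thus high in the 3 arrays that were high for Tet2 and Tet3. The embryonic globin gene Hbb-bh1, named here because of its values, stood at 10.02, 13.6 and 9.84 in HOXB4 1 to 3, against 12.6, 10.7 and 13.5 in control 1 to 3, and was low in those 3 arrays. Gfi1b, Gata1 and Hba-x, also named for their values, were low in the same 3 arrays. The means of Gata1 and Hba-x, 5.25 and 4.22, lay within the range of the background features. Spi1, a myeloid transcription factor, differed by 0.27 (SE 0.15), with a mean of 5.07 that lay within the range of the background features. The mean of all 10 blood markers, which pools these patterns, ran from 6.55 to 6.84 in HOXB4 cells and from 6.43 to 6.93 in controls. The mean of 11 cardiac and lateral mesoderm markers ran from 7.09 to 8.20 in HOXB4 cells and from 8.38 to 8.66 in controls. These means lay apart, with HOXB4 2 the closest to the controls. Of the 11 genes 9 differed below 0 and 2 above. For 3 of them (27.3%, against 10.2% of all genes) every HOXB4 value lay below every control. The mean of 16 pluripotency genes was 7.06, 7.55 and 7.60 in HOXB4 1 to 3, against 6.97, 6.56 and 7.21 in control 1 to 3. Of these 16 genes 15 had differences above 0, where 40.0% of all genes did, and 0 passed the test. Without HOXB4 2, 12 of the 16 lay above 0. Their median with all arrays was 0.50, where the median of all genes was -0.04. This list also pools unlike patterns. Dppa4, named for its values, was high in the 3 arrays that were high for Tet2, and Tdgf1 and Dppa5a were low in them. Zfp42 differed by 0.69 (SE 0.23), Utf1 by 0.73 (SE 0.29) and Esrrb by 0.43 (SE 0.21), where the means of Utf1 and Esrrb, 5.43 and 4.43, lay within the range of the background features. The median was 0.22 without control 2 and 0.81 without control 3. In each group the array lowest in Dnmt3b, HOXB4 1 and control 2, was also the lowest in the pluripotency mean, and their relation was not tested. The means of paraxial mesoderm, endoderm and neural markers ran from 4.98 to 5.44, 5.19 to 5.76 and 7.38 to 7.96 in HOXB4 cells, and from 5.21 to 5.35, 5.46 to 5.67 and 7.50 to 7.94 in controls. The paraxial and endoderm means lay below 5.85, the highest mean of a background feature, in every array, but these lists also held brighter genes. Of the endoderm list, Cxcr4, Cldn6 and Epcam had means of 7.81, 5.91 and 8.20. Cxcr4 differed by -2.38 (SE 0.82, adjusted p = 0.605 by limma), with HOXB4 values below every control. Cldn6 and Epcam differed by 0.76 (SE 0.44) and 0.61 (SE 0.42), and their groups overlapped.

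**Figure D3:**
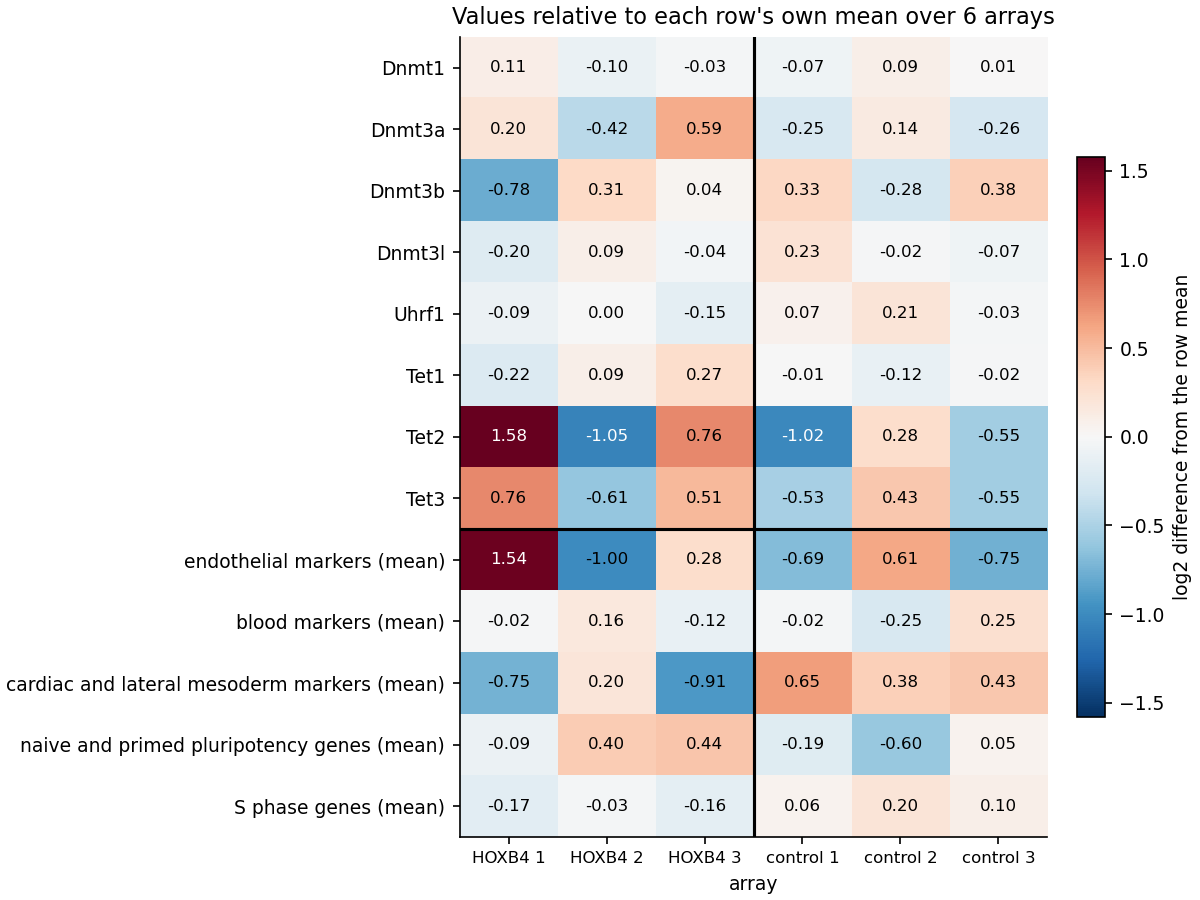
Log2 value of each gene, or mean of each marker list, minus its own mean over the 6 arrays (colour and number), with HOXB4 arrays left of control arrays. Tet2, Tet3, Dnmt3a and the endothelial mean are above 0 in HOXB4 1, HOXB4 3 and control 2, and Dnmt3b is lowest in HOXB4 1 at -0.78.

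Single genes with the profile closest to that of a member were looked up for the 4 members whose values spanned at least 1 log2 unit. Likeness was the root mean square difference of the profiles over the 6 arrays after each gene's mean was removed, among 10998 named genes at or above the median level. Closest to Tet2 were Srgap1 (0.13), Flt1 (0.15), which encodes a VEGF receptor of endothelium, and Afap1l1 (0.16). Flt1, which is also among the endothelial markers above, stood at 11.6, 8.95 and 11.0 in HOXB4 1 to 3, against 8.98, 10.3 and 9.22 in control 1 to 3. Closest to Tet3 were Pdgfd, a PDGF ligand (0.04), Ppfibp2 (0.04) and Vim, the intermediate filament vimentin (0.05). The mean of Pdgfd, 5.33, lay within the range of the background features. Closest to Dnmt3a were Reep1, Zfp462 and Trnt1, an enzyme of tRNA maturation (0.07, 0.07 and 0.08). Closest to Dnmt3b were Dnmt3b-ps1, the adhesion receptor gene Cxadr and the DNA end-binding factor Xrcc5 (0.09, 0.09 and 0.11). Tet2 and Tet3 differed from each other by 0.45 on this measure, and Tet2 and Dnmt3b by 1.35. The measure grows with the spread of the values: Dnmt1 and Dnmt3l, which varied little, differed by 0.20. Some genes are always closest among so many over 6 arrays, and whether these were closer than that was not tested.

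The 16 genes that work with DNMT1 and UHRF1, or protect imprints, were divided. The test called 0 of them, 10 lay below 0 and 6 above, with a median of -0.07, where 40.0% of all genes lay above 0. With cyclic loess 7 lay below and 9 above, where 51.7% of all genes lay above 0. These counts are near those of all genes, and so are those of the TET and repair list and of the metabolic list given below. Pclaf, a PCNA-binding factor, stood at 10.6, 11.0 and 10.8 in HOXB4 1 to 3, against 11.5, 11.5 and 11.2 in control 1 to 3, so that the groups lay apart. Its difference was -0.61 (SE 0.13, adjusted p = 0.605 by limma). Cdca7, the partner of the remodeller HELLS, stood at 9.05, 9.35 and 9.10 in HOXB4 1 to 3, against 9.75, 9.71 and 9.50 in control 1 to 3, a difference of -0.48 (SE 0.12). Zfp57, which guards methylation at imprinted regions, stood at 9.32, 8.54 and 9.43 in HOXB4 1 to 3, against 7.57, 8.49 and 8.53 in control 1 to 3. Its difference was 0.90 (SE 0.33), with HOXB4 2 only just above control 3. In this list 2 genes had HOXB4 values above all controls (12.5%, against 3.24% of all genes) and 3 had them below (18.8%, against 10.2%).

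Genes of S phase, when DNMT1 and UHRF1 act, lay lower in HOXB4 cells without any passing the test. Of 18 measured, 17 had differences below 0 and 1 above, where 40.0% of all genes lay above, with a median of -0.19 against -0.04 over all genes, and with cyclic loess 14 of 18 lay below 0 (median -0.09). All 3 HOXB4 values lay below all 3 control values for 11 of them (61.1%, against 10.2% of all genes). Pcna, among these, is also counted in the list of DNMT1 and UHRF1 partners above. The list mean was 11.81, 11.94 and 11.82 in HOXB4 1 to 3, against 12.03, 12.17 and 12.07 in control 1 to 3. Rrm2, a subunit of ribonucleotide reductase, differed by -0.36 (SE 0.08), the licensing factor gene Cdc6 by -0.59 (SE 0.14) and the cyclin gene Ccne2 by -0.64 (SE 0.20), each at an adjusted p of 0.605 by limma. Uhrf1 at -0.16 lay near the list median and Dnmt1 at -0.02 did not share it; the difference between Dnmt1 and the list was not tested. The part of the S phase level in the Uhrf1 value was not tested.

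Genes that act with TET enzymes or in the repair after them were split as well, with 0 of 17 measured called, 10 below 0 and 7 above (7 below and 10 above with cyclic loess). Ogt, the sugar transferase that binds TET proteins, stood at 12.5, 12.6 and 12.6 in HOXB4 1 to 3, against 12.1, 11.8 and 12.4 in control 1 to 3. It differed by 0.42 (SE 0.15, adjusted p = 0.605 by limma), with every HOXB4 value above every control. The glycosylase gene Smug1, with a mean of 4.71 also within the range of the background features, differed by -0.26 (SE 0.10) and the repair scaffold gene Xrcc1 by -0.20 (SE 0.08), both with HOXB4 values below every control. In this list 11.8% of genes lay wholly below the controls, against 10.2% of all genes, and 5.88% wholly above, against 3.24%. Among 6 methyl-CpG readers the test called 0, and 4 lay above 0. Mbd2 differed by 0.32 (SE 0.15), Mbd1 by 0.36 (SE 0.20) and Mbd3, a subunit of the NuRD complex that binds methyl-CpG poorly in mammals, by -0.22 (SE 0.11).

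In the metabolism that supplies the methyl donor and the TET cosubstrate, 0 of 17 genes were called and 10 lay below 0 (7 with cyclic loess). Mtrr, which reactivates methionine synthase, stood at 8.69, 8.67 and 8.64 in HOXB4 1 to 3, against 9.38, 9.09 and 8.85 in control 1 to 3, a difference of -0.44 (SE 0.14). Ahcy, which removes the inhibitor of methyltransferases S-adenosylhomocysteine, differed by -0.27 (SE 0.11), and the folate enzyme gene Mthfd1 by -0.19 (SE 0.08). The HOXB4 values of all 3 lay below all control values, which makes 17.6% of the list against 10.2% of all genes, and 1 further gene (5.88%, against 3.24%) had them above. Of 13 chromatin and regulatory genes around de novo methylation, 0 were called and the median was 0.02. Mycn and Myc, which encode growth-promoting transcription factors, differed by 0.28 (SE 0.12) and -0.39 (SE 0.19), and the tRNA methyltransferase gene Trdmt1 differed by 0.32 (SE 0.15).

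Germline genes that promoter methylation is known to silence lay on both sides of 0. Of 17 measured, 0 were called, 10 lay above 0 and 7 below, with a median of 0.06, and the median turned to -0.012 without HOXB4 3 and to -0.020 without control 3, with 11 below 0 in each case. Many of these features were dim: the filter on dim features kept 9 of the 17, of which 7 lay above 0 (median 0.12). Their mean was 4.93, 4.91 and 5.15 in HOXB4 1 to 3, against 5.06, 5.02 and 4.81 in control 1 to 3, and the groups overlapped. Asz1 differed by -0.19 (SE 0.09), Rhox5 by -0.57 (SE 0.29) and Sycp1, of the synaptonemal complex, by 0.29 (SE 0.16). Their means of 3.90, 5.48 and 5.41 lay within the range of the background features, which reached 5.85, so these 3 differences are not read as expression. Ddx4 and Sycp3, named for means above that range (7.68 and 8.39), differed by 0.38 (SE 0.29) and -0.42 (SE 0.53), and their groups overlapped. Ddx4 was high in HOXB4 1, HOXB4 3 and control 2, and Sycp3 was low in those arrays. DNA methylation itself was not measured here.

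**Figure D4:**
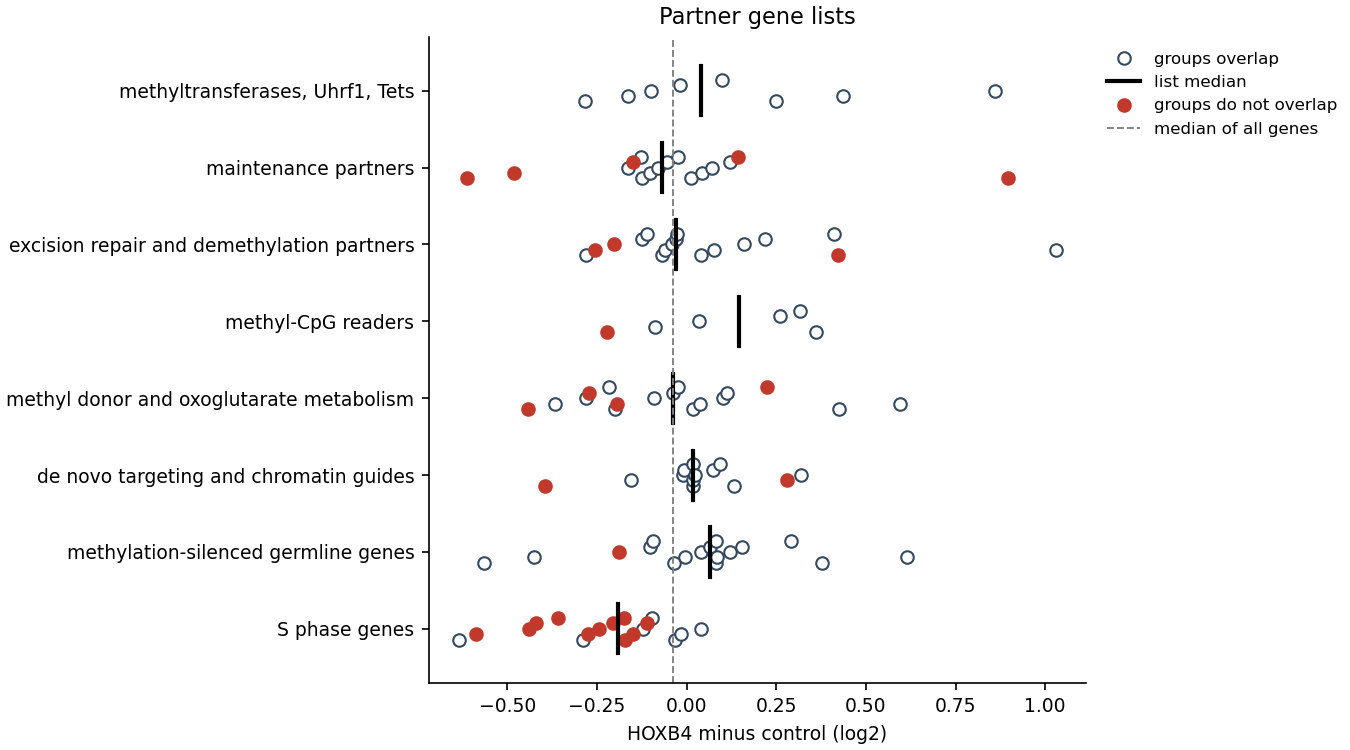
HOXB4 minus control (x axis, log2) for each measured gene of 8 lists (rows), filled where the 3 HOXB4 and 3 control values do not overlap, with the list median as a bar and the median of all genes, -0.04, as a dashed line. None of the 8 enzyme genes is filled, and 17 of 18 S phase genes lie left of 0.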

How the data were processed

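Per the labels' protocols, 100 ng of Trizol and column purified RNA was end-labelled with a kit of the array's maker. The authors deposited log2 values, which they computed, per the submitters' processing notes, with Affymetrix Expression Console and RMA. RMA removes background, equalises quantiles across arrays and combines probes into 1 value per feature. Its version and settings: not given in the sources used here. Quantile normalisation can remove part of a shift shared by most genes.

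Of 65956 features that were not controls, 31258 named 1 gene after symbols were updated through a RefSeq table (assembly GRCm38.p6), 1492 named several and 33206 had no listed gene. The brightest feature by mean stood for each of 30702 genes; 441 had several. The median gene lay between 5.10 and 5.22 and the median of 23 background features between 3.06 and 3.15 in the 6 arrays, whose number limits the precision. The difference HOXB4 minus control came from limma 3.58.1, run in R 4.3.3 (two-sided, no replicate block, adjusted p below 0.05), with steps tested on simulated data. Intervals and SE are moderated. Figures used Python 3.11.15 and matplotlib 3.10.9.

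Named genes were the 8 members, the 3 genes per list with the smallest unadjusted p (the lists of endothelial, cardiac, paraxial and neural markers are given as means), the closest profiles (predicted, microRNA, small nucleolar and receptor-cluster genes left out) and Kdr. The members and lists were chosen with earlier results of these data known. No set test was run. As alternatives the fit was repeated with a block for the replicate number, another prior, array weights, a filter on dim features (genes at or above the median feature in at least 3 arrays), arrays centred on medians, cyclic loess, the mean of features, all features tested, no moderation, and each array left out.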

Additional observations from a re-analysis of the deposited data

How the results depend on the processing

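No alternative called any of the 8 members, and their adjusted p ran from 0.196 (Tet2 without HOXB4 2) to 0.998. Only array weights, arrays centred on medians, cyclic loess and leaving out an array could change a member's difference. The other alternatives returned the same difference and changed only its error or its adjusted p. Dnmt3a, Uhrf1, Tet2 and Tet3 kept their sign wherever it could change. So did Dnmt3l, which is not read as expression and which the filter on dim features removed, leaving it 14 alternatives. Dnmt1 turned to 0.0010 with arrays centred on their medians and to 0.087 with cyclic loess, and ran from -0.078 to 0.026 with 1 array left out. With 1 array left out, Dnmt3b ran from -0.51 to 0.033, Tet1 from -0.013 to 0.23, Tet2 from 0.28 to 1.60, Tet3 from 0.17 to 0.85, Dnmt3a from 0.02 to 0.52 and Uhrf1 from -0.22 to -0.10. The count of genes called was 0 in every alternative except without HOXB4 replicate 2, where limma called 46 genes, 3 of them higher. In the same fit 5 list genes were called, Hand1, Tbx20, Isl1, Foxf1 and Cxcr4 (chosen for mention by that call), all lower. Tet2, Dnmt3a and Tet3, 3 of the 8 members, then had an unadjusted p below 0.05 by limma. So did 4267 of all 30702 genes in that fit, against 2513 with all arrays. The adjusted p of the 3 members by limma were 0.196, 0.294 and 0.314. With 1 array left out, the median of the maintenance partners ran from -0.095 to -0.014, of the TET and repair list from -0.053 to 0.041, of the metabolic list from -0.093 to -0.0087, of the chromatin list from 0.0012 to 0.084 and of the methyl-CpG readers from 0.072 to 0.19. Without HOXB4 1 the median of the endothelial markers turned to -0.13, where it was 0.48 with all arrays. With the replicate block, limma called 0 genes, and 1294 instead of 2513 had an unadjusted p below 0.05. Deviations of same-numbered arrays from their group means correlated over genes at -0.40, -0.59 and -0.35, and no array correlated best with its own number. Such deviations sum to 0 within each group of 3, so these values cannot tell whether same-numbered arrays came from the same experiment.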
